A study of Mus musculus with 6 samples.

Results

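Neurexins, neuroligins and LRRTMs are adhesion proteins that face each other across the synaptic cleft. The 9 genes described here, Nrxn2, Nrxn3, Nlgn1, Nlgn2, Nlgn3, Lrrtm1, Lrrtm2, Lrrtm3 and Lrrtm4, were chosen by symbol from the 41228 entries of a gene count table, and all 9 had a single entry. The table held 6 cerebellum libraries, each from a mouse of the C57BL/6 strain aged 6 days: 3 of the SnoN cKO genotype, a conditional knockout of SnoN, and 3 of the wild type genotype. SnoN is a transcriptional cofactor of the TGF-beta and Smad pathway encoded by Skil. The Cre driver, the deleted part of the gene and the alleles that the wild type mice carried were not given in the sources used here. Total RNA of the whole tissue was sequenced, so that fewer cells of a type and less RNA per cell cannot be told apart. The labels gave no litter or dissection day, and the p-values below come from tests of the genotype difference against the spread between these libraries.

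Neurexins sit mainly in the presynaptic membrane, where their cytoplasmic ends reach the scaffold of the active zone. Neuroligins and LRRTMs sit in the postsynaptic membrane and bind the outer part of neurexins, and alternative splicing of neurexins sets which partner can bind. In the cerebellum neurexins also bind secreted cerebellins, which link parallel fibres of granule neurons to the delta type glutamate receptor of Purkinje cells. In the first postnatal week of the mouse, granule neuron precursors still divide in the outer layer of the cerebellum and most of these synapses are yet to form.

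The libraries held between 12698174 and 17840662 counts in SnoN cKO and between 12662952 and 15118833 in wild type. Levels are given as CPM, counts relative to library size, with library sizes adjusted by TMM, a trimmed mean of log ratios between libraries. All 14 genes of a cerebellum check list were detected, among them Zic1, a granule lineage factor, at a mean of 1511 CPM in SnoN cKO and 1461 CPM in wild type. Skil had 76.0, 74.7 and 77.5 CPM in SnoN cKO, against 89.5, 87.5 and 88.9 CPM in wild type. The genotypes did not overlap, and the log2 fold change, SnoN cKO over wild type as throughout, was -0.22 (SE 0.04). The targeted gene missed the threshold of 0.05, with an edgeR quasi-likelihood adjusted p of 0.637. The identifier column of the table was displaced against the symbols: of 40254 identifiers found in GENCODE M21, 97 stood beside their own symbol, and none of the 9 did. Counts followed the symbols. The entry with the symbol of Actb, a cytoskeletal actin, held 16230 to 20892 counts, and the entry with its identifier held 1151 to 1475, so genes are named by symbol here. The labelled sexes of SnoN cKO 1 and SnoN cKO 2 went against their X- and Y-linked transcripts: SnoN cKO 1, labelled female, had 35 Xist counts, and SnoN cKO 2, labelled male, had 37467. Both are SnoN cKO libraries, so the genotype groups are the same with the labels exchanged. A ribosomal RNA gene, Gm42418, took 3.75% of the counts in SnoN cKO 3 and 0.692% in wild type 2, against 0.0512% to 0.0660% in the other 4 libraries.

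The start regions of Nlgn2, Nrxn3 and Lrrtm4 are shown as examples of how differently these genes begin their transcripts. Each window holds the 250 bases before a RefSeq start that is also the start of a GENCODE M21 transcript (build GRCm38.p6, sequences from RefSeq). Capitals mark CAGCTG, an E-box, which reads the same on both strands. Of the 9 genes, 6 had an entry in the RefSeq table, with 10 windows, and Nrxn2, Nlgn3 and Lrrtm2 had none. The single Nlgn2 window, chr11:69837785-69838034 on the minus strand, had 67.6% G and C and 18 CpG sites, against medians of 52.4% and 6 over 32851 promoters. Nlgn2 is shown for having the highest level per kilobase of all annotated exons among the 9 genes and Lrrtm4 for the lowest. Nrxn3 is shown because neurexin genes are known to use separate starts for long and short forms, which the counts per gene sum. It had 3 RefSeq starts. The second start lay 158.886 kb and the third 1017.98 kb downstream of the first. Their windows were chr12:88953140-88953389 and chr12:89812233-89812482 on the plus strand, and the third held 60% G and C and 12 CpG sites. The first Lrrtm4 window, chr6:80018627-80018876 on the plus strand, held 2 E-boxes and 3 CpG sites.
Nlgn2: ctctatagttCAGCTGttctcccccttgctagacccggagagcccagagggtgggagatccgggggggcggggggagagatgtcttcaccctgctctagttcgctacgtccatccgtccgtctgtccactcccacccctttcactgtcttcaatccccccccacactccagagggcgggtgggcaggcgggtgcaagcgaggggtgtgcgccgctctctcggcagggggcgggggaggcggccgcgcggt
Nrxn3, the second start: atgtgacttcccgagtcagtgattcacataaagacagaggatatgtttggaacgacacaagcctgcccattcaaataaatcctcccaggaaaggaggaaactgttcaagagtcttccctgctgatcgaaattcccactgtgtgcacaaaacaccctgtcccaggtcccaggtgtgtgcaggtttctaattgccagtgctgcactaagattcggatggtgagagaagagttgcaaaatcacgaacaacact
Nrxn3, the third start: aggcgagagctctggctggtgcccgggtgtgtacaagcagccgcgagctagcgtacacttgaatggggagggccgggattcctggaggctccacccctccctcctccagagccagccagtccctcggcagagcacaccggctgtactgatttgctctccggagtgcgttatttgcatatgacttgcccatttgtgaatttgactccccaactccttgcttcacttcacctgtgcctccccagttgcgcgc
Lrrtm4, the first start: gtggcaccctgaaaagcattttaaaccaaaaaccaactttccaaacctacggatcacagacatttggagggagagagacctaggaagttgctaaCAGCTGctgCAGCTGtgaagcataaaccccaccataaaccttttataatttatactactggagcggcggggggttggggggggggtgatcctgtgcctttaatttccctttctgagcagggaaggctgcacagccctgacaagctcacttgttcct

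Searched on both strands, CAGCTG was found in the windows of Nlgn2 and Lrrtm4 and in 13% of all promoter windows of the same length. None of the 10 windows held the Smad palindrome GTCTAGAC (0.167% of all windows), the E-box CAGATG (14.4%) or the cyclic AMP response element core TGACG (17.8%). A match describes letters in the sequence and not binding.

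The neurexins were lower on average in SnoN cKO, and neither passed the test. Nrxn2, whose gene gives alpha and beta neurexin-2, had 367, 330.1 and 362 CPM in SnoN cKO, against 372, 405 and 389 CPM in wild type. Every SnoN cKO library lay below every wild type library, with SnoN cKO 1 and wild type 1 nearest each other. The means were 353 ± 19.9 CPM in SnoN cKO and 389 ± 16.7 CPM in wild type (SD, n = 3 each), a log2 fold change of -0.14 (SE 0.05, 95% interval -0.26 to -0.02) with an edgeR adjusted p of 0.637. Nrxn2 lies on chromosome 19, and 4.94% of its exon bases are shared with Slc22a12, a urate transporter gene with 16, 20 and 17 counts in SnoN cKO and 5, 13 and 7 in wild type.

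Nrxn3, which encodes neurexin-3 and lies on chromosome 12, had 144, 137 and 149.9 CPM in SnoN cKO, against 149.1, 161 and 155 CPM in wild type. SnoN cKO 3 lay above wild type 1, so the genotypes overlapped. The means were 143 ± 6.67 CPM in SnoN cKO and 155 ± 5.91 CPM in wild type (SD, n = 3 each), with a log2 fold change of -0.11 (SE 0.05, 95% interval -0.22 to 0.0017, edgeR adjusted p of 0.654). Summed, both neurexins came to 511, 467 and 511 CPM in SnoN cKO, against 521, 566 and 544 CPM in wild type. SnoN cKO 2 was the lowest library of the sum, as it was of each gene.

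The 3 neuroligins had lower means in SnoN cKO, and none passed the test. Nlgn1, an adhesion protein of excitatory synapses on chromosome 3, had 29.8, 28.6 and 31.3 CPM in SnoN cKO, against 32.5, 38.1 and 30.3 CPM in wild type. Wild type 2 stood above the other 5 libraries, and SnoN cKO 3 lay above wild type 3. The means were 29.9 ± 1.35 CPM in SnoN cKO and 33.7 ± 4.02 CPM in wild type (SD, n = 3 each), a log2 fold change of -0.17 (SE 0.08, 95% interval -0.36 to 0.02) with an edgeR adjusted p of 0.654. Without wild type 2 it was -0.07.

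Nlgn2, the neuroligin of inhibitory synapses on chromosome 11, had 255, 251 and 240.1 CPM in SnoN cKO, against 259.9, 258 and 266 CPM in wild type. The genotypes did not overlap, and the lowest wild type library exceeded the highest SnoN cKO library by a few CPM. The means were 249 ± 7.72 CPM in SnoN cKO and 261 ± 3.91 CPM in wild type (SD, n = 3 each), a difference of -4.80% and a log2 fold change of -0.07 (SE 0.04, 95% interval -0.16 to 0.02) with an edgeR adjusted p of 0.677. Without SnoN cKO 3 it was -0.04.

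Nlgn3, found at both excitatory and inhibitory synapses and located on the X chromosome, had 35.0, 28.8 and 31.6 CPM in SnoN cKO, against 37.2, 38.7 and 32.5 CPM in wild type. SnoN cKO 1 lay above wild type 3 and the genotypes overlapped. The means were 31.8 ± 3.13 CPM in SnoN cKO and 36.1 ± 3.22 CPM in wild type (SD, n = 3 each), with a log2 fold change of -0.19 (SE 0.09, 95% interval -0.38 to 0.0011, edgeR adjusted p of 0.653). Without SnoN cKO 2 it was -0.13. The exons of Gm21986, on the same strand, cover 41.24% of the exon bases of Nlgn3 in GENCODE M21. Reads in that stretch cannot be told apart, so the level of Nlgn3 is uncertain to that extent.

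Among the LRRTMs, leucine-rich repeat proteins of the postsynaptic membrane, Lrrtm2 was the one gene whose genotypes did not overlap. Lrrtm2, a neurexin ligand of excitatory synapses on chromosome 18, had 42.2, 38.2 and 41.6 CPM in SnoN cKO, against 45.1, 45.4 and 43.1 CPM in wild type. All SnoN cKO libraries lay below all wild type libraries, with SnoN cKO 1 and wild type 3 nearest each other. The means were 40.7 ± 2.15 CPM in SnoN cKO and 44.5 ± 1.23 CPM in wild type (SD, n = 3 each), a log2 fold change of -0.13 (SE 0.06, 95% interval -0.26 to -0.0042) with an edgeR adjusted p of 0.640.

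Lrrtm1, a neurexin ligand on chromosome 6, ranged over 28.7 to 31.7 CPM in SnoN cKO and 27.4 to 32.2 CPM in wild type, with means of 30.3 ± 1.55 CPM in SnoN cKO and 30.3 ± 2.60 CPM in wild type (SD, n = 3 each). Its 95% interval, -0.17 to 0.17 on the log2 scale, covers both a modest decrease and a modest increase. Lrrtm3, on chromosome 10, ranged over 27.3 to 32.5 CPM in SnoN cKO and 28.4 to 31.3 CPM in wild type, with a log2 fold change of 0.01 (SE 0.08, 95% interval -0.16 to 0.18). Of the 9 genes it alone had a fold change above 0, and its groups overlapped. Lrrtm4, which binds heparan sulfate chains of glypicans and neurexins, had 4.23, 5.28 and 7.33 CPM in SnoN cKO, against 6.73, 6.58 and 6.31 CPM in wild type. These values rest on 54, 78 and 125 counts in SnoN cKO and 86, 99 and 81 in wild type. The SnoN cKO libraries lay on both sides of the wild type ones, and the log2 fold change of -0.20 had the widest interval of the family, -0.62 to 0.21 (SE 0.19, edgeR adjusted p of 0.785). It was -0.05 without SnoN cKO 1 and -0.45 without SnoN cKO 3 (edgeR adjusted p of 0.465).

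Lrrtm1, Lrrtm2 and Lrrtm3 each lie inside an alpha-catenin gene on the opposite strand, Ctnna2, Ctnna1 and Ctnna3, which encode proteins that tie cadherins to actin. The library kit does not record strand, so reads of overlapping exons cannot be told apart, but in GENCODE M21 only Lrrtm2 shares exon bases with its host, 95 of them or 1.58%. Lrrtm4 shares 25.1% of its exon bases with Gm4409, a gene on the opposite strand with 0 counts in every library. The level of Lrrtm4 is uncertain to that extent. Ctnna1 averaged 170 ± 3.18 CPM in SnoN cKO and 164 ± 3.99 CPM in wild type (SD, n = 3 each). Ctnna2 averaged 128 ± 4.03 CPM in SnoN cKO and 135 ± 8.54 CPM in wild type, and Ctnna3 averaged 1.34 ± 0.312 CPM in SnoN cKO and 1.73 ± 0.420 CPM in wild type.

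**Figure D1:**
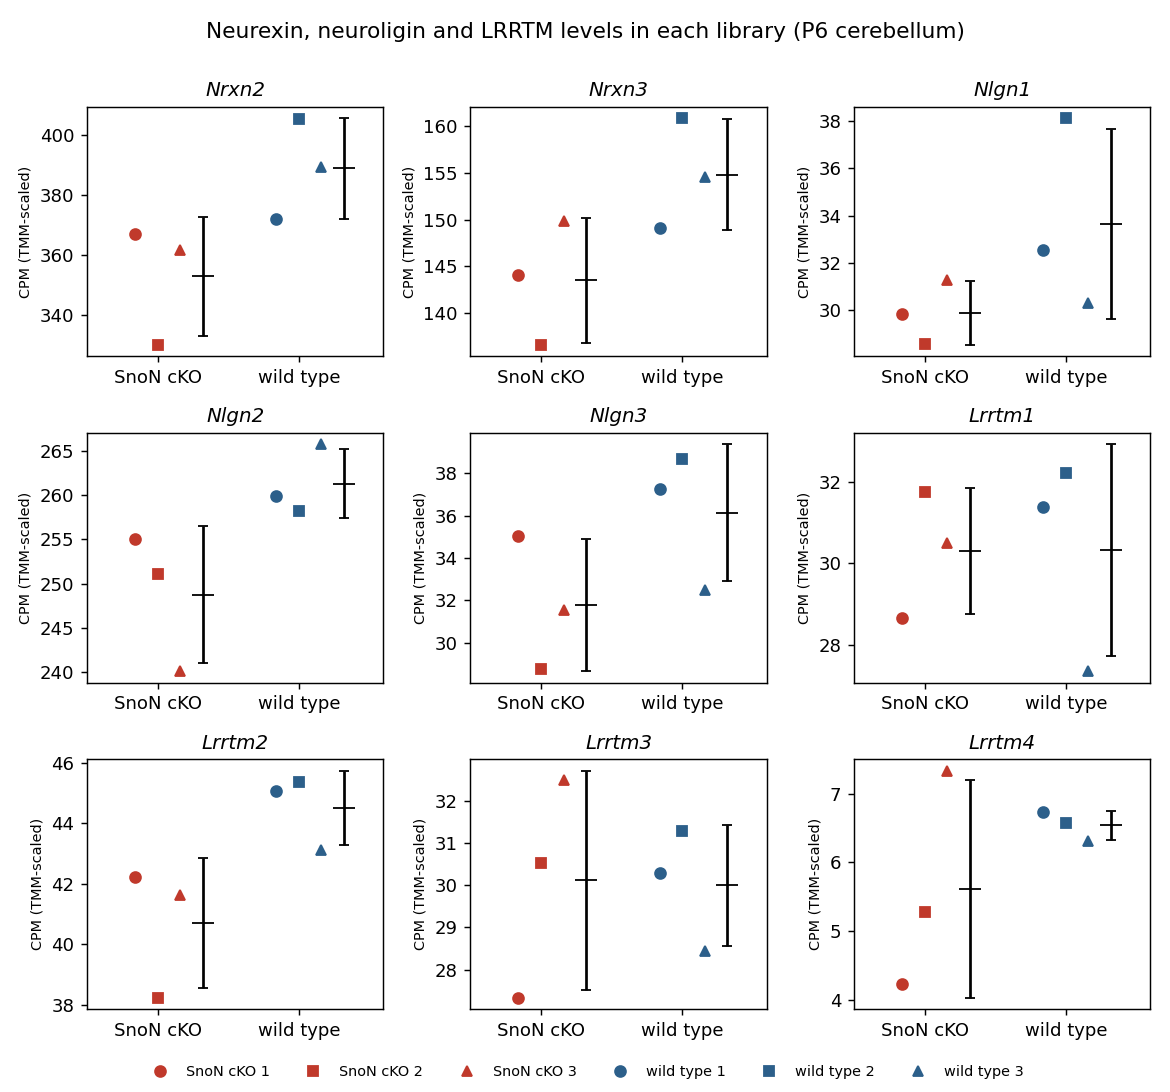
CPM of each of the 9 genes in 3 SnoN cKO libraries (red, left) and 3 wild type libraries (blue, right), with a y axis of its own for each gene that does not start at 0. Points are libraries, and the bars beside them give the mean and SD. Nrxn2, Nlgn2 and Lrrtm2 show no overlap between the genotypes, and the other genes overlap.

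Set per kilobase of exon, since counts grow with transcript length, Nlgn2 stood highest at 43.0 ± 1.33 CPM per kb in SnoN cKO and 45.2 ± 0.677 CPM per kb in wild type (SD, n = 3 each). Nrxn2 followed at 25.5 ± 1.44 CPM per kb in SnoN cKO and 28.1 ± 1.21 in wild type, then Nrxn3 at 11.4 ± 0.529 CPM per kb in SnoN cKO and 12.3 ± 0.469 in wild type. Lrrtm1 had 9.99 ± 0.510 CPM per kb in SnoN cKO and 9.995 ± 0.856 in wild type. Lrrtm2 and Lrrtm3 lay between 6.35 and 7.64 CPM per kb over the 6 libraries and overlapped each other, so their order is not resolved. Below them came Nlgn3 at 3.43 ± 0.338 CPM per kb in SnoN cKO and 3.90 ± 0.348 in wild type, Nlgn1 at 2.23 ± 0.101 in SnoN cKO and 2.51 ± 0.300 in wild type, and Lrrtm4 at 0.913 ± 0.257 in SnoN cKO and 1.06 ± 0.0342 in wild type. Neighbours in that order other than Lrrtm2 and Lrrtm3 did not overlap. The place of Nlgn3 is uncertain, since it shares 41.24% of its exon bases with Gm21986. With the longest transcript as length, Nrxn2 came first, with 52.9 ± 2.98 CPM per kb in SnoN cKO and 58.3 ± 2.51 in wild type, because its longest transcript is 6.667 kb against 13.812 kb of all its exons.

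Within families, Nlgn2 made up 88.4% ± 0.758 of the summed CPM per kb of the 3 neuroligins in SnoN cKO and 87.6% ± 1.21 in wild type (SD, n = 3 each). Nrxn2 made up 69.2% ± 0.657 of the 2 neurexins in SnoN cKO and 69.6% ± 0.118 in wild type. Lrrtm1 made up 40.4% ± 1.59 of the 4 LRRTMs in SnoN cKO and 39.1% ± 1.21 in wild type. Each share differed between the genotypes by less than the larger SD of the pair. All shares use the length of all annotated exons, and the SDs do not cover that choice. The neuroligin share also rests on the uncertain level of Nlgn3.

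**Figure D2:**
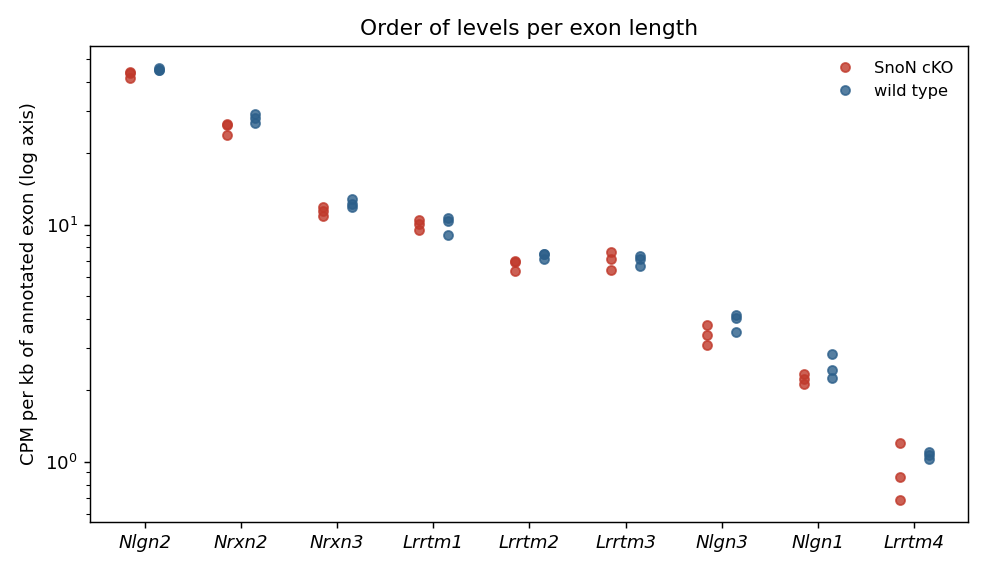
CPM per kb of exon for the 9 genes, SnoN cKO left in red and wild type right in blue, on a log axis, with points for libraries. Nlgn2 lies highest at 43.0 CPM per kb in SnoN cKO and 45.2 in wild type, and Lrrtm4 lowest at 0.913 in SnoN cKO and 1.06 in wild type.

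All 9 genes passed the filter on low counts and so were among the 15457 tested. None was called at an adjusted p under 0.05 with edgeR, as were 0 of all genes tested (0%). DESeq2 called 6 genes (0.0388%) and limma-voom 0, none of them among the 9. At an unadjusted p under 0.05 Nrxn2 and Lrrtm2 were below it, both lower in SnoN cKO, against 7.68% of all genes in either direction and 4.47% lower. Their edgeR p-values were 0.0273 and 0.0440. At that threshold DESeq2 had 1 of the 9 genes, against 4.32% of all genes, and limma-voom had 3, against 7.81%.

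Fold changes of 8 of the 9 genes lay below 0, against 51.0% of all genes, and Lrrtm3 was the exception. Every SnoN cKO library lay below every wild type library for 3 of the 9, Nrxn2, Nlgn2 and Lrrtm2, against 6.73% of all genes tested and 13.7% with no overlap in either direction. The median log2 fold change of the 9 genes was -0.13, against -0.00 over all genes tested, where the median absolute log2 fold change was 0.07. The genes share libraries and were chosen by name, so the median carries no test. No interval of the 8 genes other than Lrrtm4 reached below -0.38 or above 0.18.

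**Figure D3:**
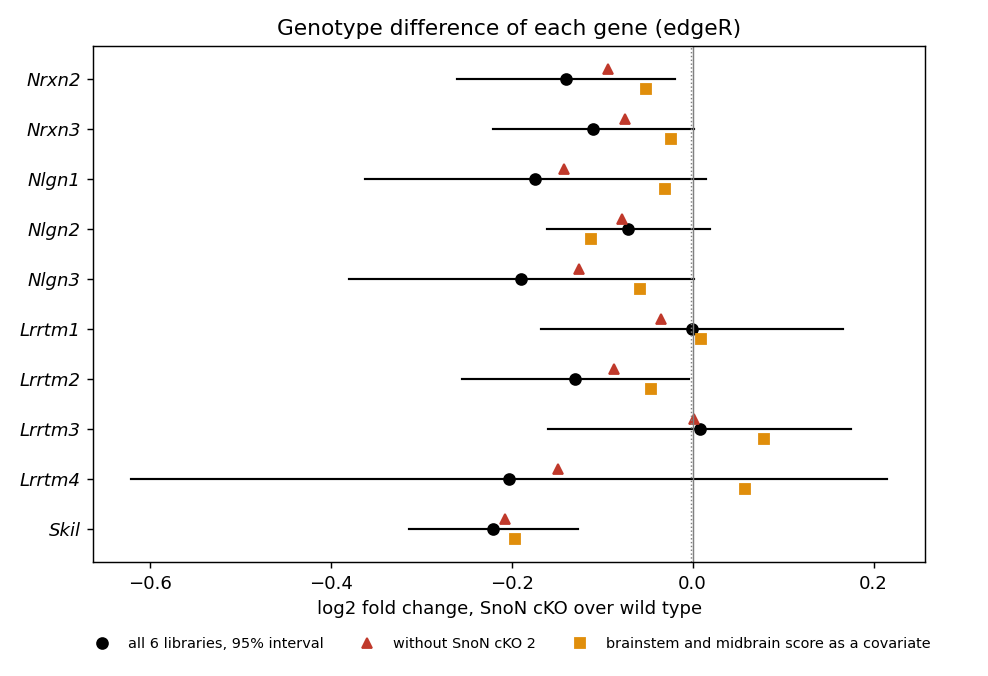
Log2 fold change of SnoN cKO over wild type for the 9 genes and Skil, with 95% intervals as lines. Red triangles leave out SnoN cKO 2, and orange squares have the brainstem and midbrain marker score as a covariate. Of the 9 genes, 8 lie below 0 and Lrrtm3 lies at 0.01, and Skil lies at -0.22.

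SnoN cKO 2 was the lowest of the 6 libraries for 5 of the 9 genes, Nrxn2, Nrxn3, Nlgn1, Nlgn3 and Lrrtm2, against 24.6% of all genes tested. Wild type 2 was the highest for 6 of the 9, against 17.1% of all genes tested. Without SnoN cKO 2 the median log2 fold change of the 9 genes was -0.09, and without wild type 2 it was -0.08. In neither case was any of the 9 below an unadjusted p of 0.05, and the share of all genes below it was 4.75% without SnoN cKO 2 and 4.31% without wild type 2. SnoN cKO 2 was also the lowest and wild type 2 the highest library for brainstem and midbrain markers. The score of a list of brainstem and midbrain markers, its mean log2 CPM centred over the 6 libraries, was -0.49, -1.50 and 0.28 in SnoN cKO, against 0.55, 0.93 and 0.22 in wild type. All 10 tested genes of that list, of 22 listed, had fold changes below 0, against 51.0% of all genes tested. The whole list summed to 9.81 to 22.3 CPM in SnoN cKO and 24.1 to 34.7 CPM in wild type. Hoxa5, a hindbrain factor, had 0.235, 0 and 0.352 CPM in SnoN cKO, against 1.33, 1.86 and 1.01 CPM in wild type, and Chat, the acetylcholine-synthesising enzyme, had 0, 0 and 0.117 CPM in SnoN cKO, against 0.156, 0.399 and 0.234 CPM in wild type.

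The scores of a list of unipolar brush cell and cerebellar nucleus markers were -0.03, -0.69 and -0.08 in SnoN cKO, against 0.48, 0.24 and 0.09 in wild type. All 10 of its genes had fold changes below 0, against 51.0% of all genes tested. Their summed CPM was 298 to 408 in SnoN cKO and 430 to 458 in wild type. Choroid plexus and ependyma markers had summed CPM of 198 to 3959 in SnoN cKO and 2140 to 3838 in wild type, and Ttr, a choroid plexus transcript, had 17.3 CPM in SnoN cKO 2 against 1641 to 3209 CPM in the other 5 libraries. GABAergic interneuron marker scores were -0.05, -0.19 and -0.01 in SnoN cKO, against 0.13, 0.09 and 0.03 in wild type. With the brainstem and midbrain score as a covariate in the edgeR model, a setting added once the values were known, the median log2 fold change of the 9 genes was -0.03, and Nlgn2 was at -0.11. The score itself differed between the genotypes, with means of -0.57 in SnoN cKO and 0.57 in wild type. This fit therefore cannot fully separate the score from genotype, and the SE of Nrxn2 was 0.07 in it, against 0.05 in the main fit. No gene of the 13 marker lists was at 0 in all 6 libraries. Beyond these values, the part of the marker differences in the results was not tested.

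**Figure D4:**
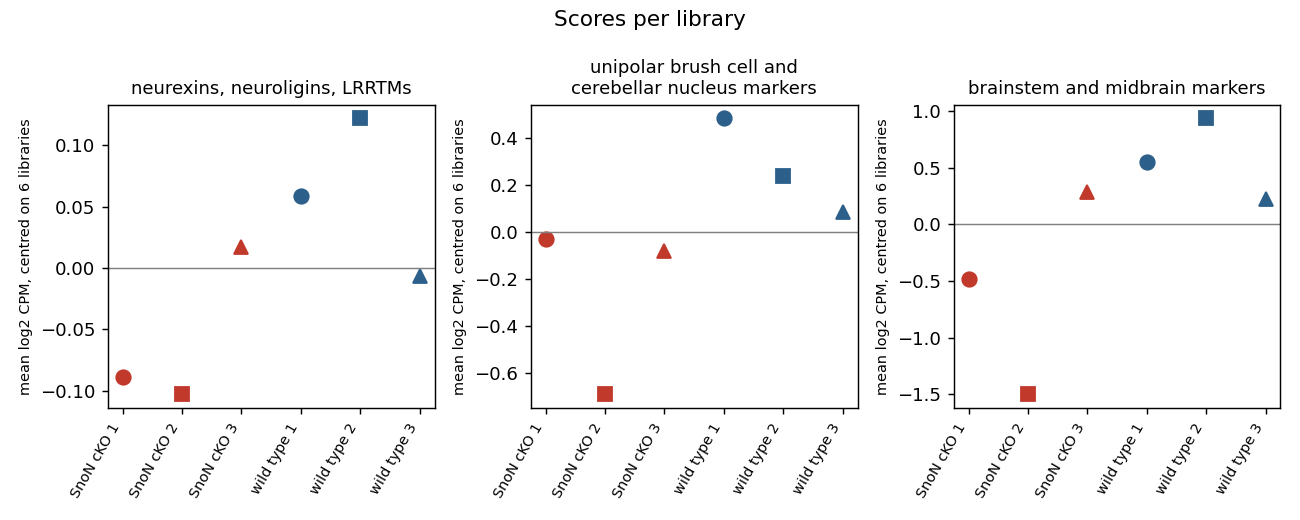
Scores of the 9 genes and of 2 marker lists in each library, the mean log2 CPM centred over the 6 libraries, with SnoN cKO left in red and wild type right in blue and a y axis of its own for each panel. SnoN cKO 2 lies lowest in all panels, at -0.10 for the 9 genes, -0.69 for unipolar brush cell and cerebellar nucleus markers and -1.50 for brainstem and midbrain markers, and wild type 2 lies highest for the 9 genes at 0.12 and for brainstem and midbrain at 0.93.

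Partners of these proteins were followed in 4 lists. For comparison, 51.0% of all genes tested had a fold change below 0. At an unadjusted p under 0.05 in edgeR stood 7.68% of all genes in either direction and 4.47% lower. Neurexin and LRRTM partners, ligands such as cerebellins and latrophilin, had 23 of 24 genes tested, 8 with a fold change above 0 and 15 below, a median log2 fold change of -0.06 and none called. At an unadjusted p under 0.05, 1 was higher and 4 were lower in SnoN cKO. Cbln2, a secreted cerebellin that bridges neurexins to postsynaptic receptors, averaged 7.39 ± 1.59 CPM in SnoN cKO and 14.6 ± 3.94 CPM in wild type (SD, n = 3 each), with values of 6.66, 6.29 and 9.21 CPM in SnoN cKO, against 18.7, 14.3 and 10.8 CPM in wild type. SnoN cKO values lay below all wild type values, the log2 fold change was -0.97 (SE 0.21), and the adjusted p was 0.637. C1ql1, a relative of the cerebellins that acts at climbing fibre synapses, averaged 56.3 ± 7.996 CPM in SnoN cKO and 46.3 ± 3.22 CPM in wild type. Fam19a2, a secreted neurexin ligand, averaged 16.2 CPM in SnoN cKO and 21.5 CPM in wild type, and Adgrl1, latrophilin-1, averaged 384 ± 12.9 CPM in SnoN cKO and 414 ± 11.2 CPM in wild type.

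Neuroligin modulators and scaffolds had 4 of 18 genes above 0 and 14 below, with a median log2 fold change of -0.03, none called and 2 lower at an unadjusted p under 0.05. Shank1, a postsynaptic scaffold, averaged 239 ± 15.2 CPM in SnoN cKO and 270 ± 6.69 CPM in wild type (log2 fold change -0.18, SE 0.05). Dlg4, which encodes PSD-95 and binds the tail of neuroligins, averaged 169.9 ± 8.75 CPM in SnoN cKO and 187 ± 5.19 CPM in wild type. Mdga2, which blocks neuroligin binding to neurexins, averaged 44.3 CPM in SnoN cKO and 49.9 CPM in wild type, and Dlgap1, a PSD-95 binding scaffold, averaged 108 CPM in SnoN cKO and 115 CPM in wild type. The presynaptic scaffolds and splicing regulators of neurexins had 6 of 15 genes above 0 and 9 below, with a median log2 fold change of -0.00, none called and 2 lower at an unadjusted p under 0.05. Caskin1, a CASK-binding scaffold, averaged 178 ± 4.98 CPM in SnoN cKO and 202 ± 11.5 CPM in wild type, and Apba1, the presynaptic adaptor Mint1, averaged 222 ± 27.5 CPM in SnoN cKO and 260 ± 10.9 CPM in wild type. Khdrbs1, an RNA-binding regulator of splicing, averaged 278 CPM in SnoN cKO and 258 CPM in wild type.

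Other synaptic adhesion organisers had 4 of 28 genes above 0 and 24 below, with a median log2 fold change of -0.07, none called and 3 lower at an unadjusted p under 0.05. Cadm1, a SynCAM adhesion protein, averaged 105.5 CPM in SnoN cKO and 124 CPM in wild type, and its groups overlapped, as did those of Slitrk4, Ntng1 and Elfn2. These 4 were picked by the rule on smallest p, and each had a fold change below 0. Over all genes tested the median log2 fold change was -0.00, as given above.

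**Figure D5:**
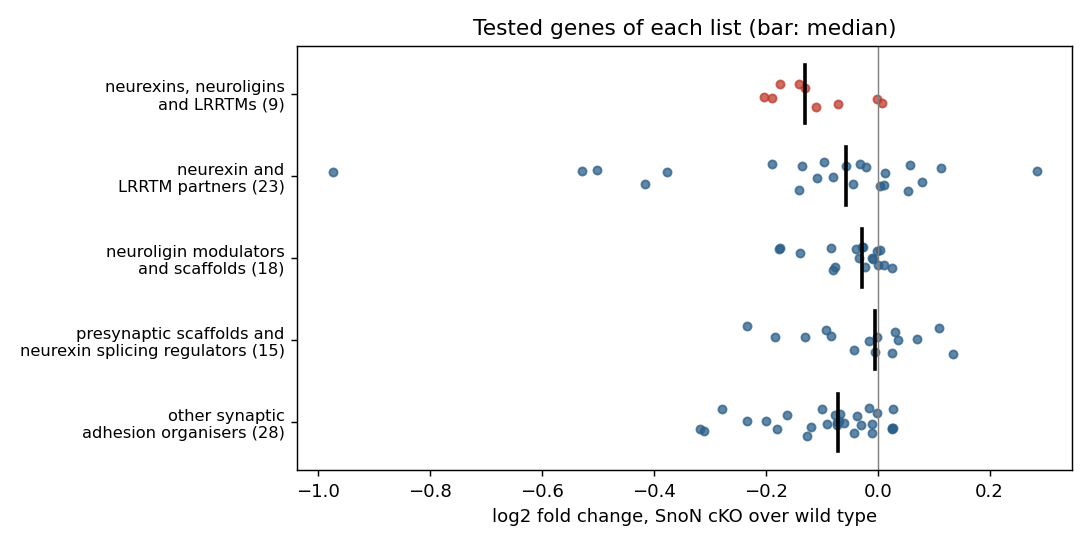
Log2 fold change of SnoN cKO over wild type for each tested gene of the 4 partner lists and for the 9 genes, with the list median as a line. Medians lie at -0.06, -0.03, -0.00 and -0.07 for the partner lists and at -0.13 for the 9 genes.

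Lrrtm4 had the largest spread of log2 CPM over the 6 libraries, with an SD of 0.283. Among 12288 genes with a mean of at least 5 CPM, those whose centred log2 CPM differed least from it were Serpinb9, with a root mean square difference of 0.0564, Fxyd5 with 0.0594, Slc6a20a with 0.0683, Zc3hav1 with 0.0797 and Itgb4 with 0.0934. All 5 were lowest in SnoN cKO 1, as Lrrtm4 was, but they were picked for a likeness that includes this library. Likeness over 6 libraries, at low counts, is a description of these values.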

How the data were processed

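Total RNA of 6 cerebella had been made into libraries with a kit that does not record strand and sequenced as single-end reads, per the labels' protocols. The authors deposited raw counts per gene for all 6 libraries. The tools named in the submitters' processing notes are featureCounts 1.4.5, STAR 2.0.4b and Subread, and the build is mm9. Their order, the annotation and the Subread version were not given in the sources used here. From the counts, 140 repeated entries (0.465% of counts) were removed, and genes were tested with edgeR 4.0.16 (glmQLFit and glmQLFTest, two-sided, R 4.3.3) after TMM scaling and a filterByExpr filter with a minimum count of 10. All 15457 genes that passed were fitted together, with Benjamini-Hochberg adjusted p-values and a threshold of 0.05. The fit was tested on simulated data. Adjusted p-values in the text come from edgeR unless DESeq2 1.42.0 or limma 3.58.1 is named. Libraries held 12662952 to 17840662 counts, and the common biological coefficient of variation, the spread between libraries beyond counting error, was 9.71%. Gene lengths, overlaps and chromosomes came from GENCODE M21 (GRCm38), matched by symbol, a build other than that of the counts, and promoter windows from RefSeq (GRCm38.p6).

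The 9 genes and all lists were chosen with earlier results of these data known. The genes named are the 9 genes, Skil, the 4 genes of each partner list with the smallest unadjusted p, and the 5 genes whose pattern is most like that of the member with the largest spread; host and overlapping genes and markers were named after their values were seen. The labels do not state that the replicate numbers pair the libraries, and same-numbered libraries had correlations between -0.32 and -0.04. Taken from deviations within 3 libraries per genotype, these correlations cannot show whether the animals were paired. The reported fit has no replicate block, and a fit with the block is one of the other settings. The fit was repeated under 15 other settings, of which 3 were added after seeing the data.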

Additional observations from a re-analysis of the deposited data

How the results depend on the processing

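None of the 9 genes was called in any of the 15 alternatives, where their lowest adjusted p was 0.465. All genes called numbered 0 in the main edgeR fit, 39 without the filter on low counts, 6 with DESeq2, 1 with the labelled sex, 9 with the brainstem and midbrain score as a covariate, and 7 without SnoN cKO 1 and 2; the cause was not tested. The main median log2 fold change of the 9 genes, -0.13, was -0.030 with that score as a covariate and -0.14 to -0.08 when each replicate was left out in turn, with 0 genes called each time. Of the genes below 0 in all 15, Nrxn2 ranged over -0.17 to -0.05, Nrxn3 over -0.14 to -0.02, Nlgn1 over -0.24 to -0.03, Nlgn2 over -0.12 to -0.04, Nlgn3 over -0.26 to -0.06 and Lrrtm2 over -0.16 to -0.05. Leaving out 1 library moved Nlgn1 to -0.07 (without wild type 2), Nlgn2 to -0.04 (without SnoN cKO 3) and Nlgn3 to -0.13 (without SnoN cKO 2), each by over 1.5 times. Lrrtm1, at -0.00085 in the main fit, was 0.0087 with no filter, 0.0010 with limma-voom, 0.0025 with the replicate block, 0.0092 with the covariate, 0.0058 without SnoN cKO 1 and 2, 0.045 without SnoN cKO 3 and wild type 2, and -0.069 to 0.051 with each replicate left out. Lrrtm3, at 0.01, was -0.017 without SnoN cKO 3 and wild type 2 and -0.044 to 0.070 with each replicate left out. Lrrtm4, at -0.20, was 0.058 with the covariate and -0.45 without SnoN cKO 3 and wild type 2. It was 0.16 without SnoN cKO 1 and 2, where SnoN cKO 3 alone stood for its genotype. With each replicate left out it was -0.45 (without SnoN cKO 3) to -0.05 (without SnoN cKO 1). With the replicate block the median was -0.13 and 786 genes had an unadjusted p under 0.05, against 1187 without it. The labels do not state that the numbers pair the libraries. Lrrtm4 had the fewest counts of the 9 genes, with an SD of 1.58 CPM in SnoN cKO at 54 to 125 counts and 0.210 CPM in wild type at 81 to 99 counts.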

Other observations

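In the other marker lists, no gene was called with edgeR. Of all genes tested, 51.0% had a fold change below 0 and 7.68% had an unadjusted p under 0.05 in edgeR. All 10 granule precursor markers and all 10 microglia markers had fold changes above 0, with median log2 fold changes of 0.11 and 0.07, and 3 and 2 of them had an unadjusted p under 0.05. All 10 meninges and fibroblast markers lay below 0, with a median of -0.12. Of 11 Purkinje cell markers, 10 lay above 0 with a median of 0.07, and of 11 astrocyte and Bergmann glia markers 8 did, with a median of 0.10. The astrocyte and Bergmann glia markers went both ways, from -0.25 to 0.19. At an unadjusted p under 0.05 in edgeR, 5 of them were higher and 2 lower in SnoN cKO. Of 12 oligodendrocyte lineage markers 9 lay below 0, with a median of -0.05 and scores of 0.01, -0.23 and 0.03 in SnoN cKO, against 0.05, 0.12 and 0.03 in wild type, so that SnoN cKO 2 was the lowest and wild type 2 the highest library, as for the 9 genes. Of 10 maturing granule neuron markers 6 lay below 0, with a median of -0.03 and scores of 0.02, -0.14 and 0.07 in SnoN cKO, against -0.00, -0.02 and 0.08 in wild type. Of 8 endothelial markers 4 lay below 0. The part of these markers in the results was not tested. Summed astrocyte and Bergmann glia markers came to 5820 to 6161 CPM in SnoN cKO and 5615 to 5654 CPM in wild type.

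Gm21986, which shares exon bases with Nlgn3, had 8, 15 and 14 counts in SnoN cKO and 3, 5 and 2 counts in wild type. A830092H15Rik, which shares 9.16% of the exon bases of Nlgn1, had 25, 40 and 46 counts in SnoN cKO and 28, 51 and 28 in wild type. These counts are not scaled for depth.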
